A study of Homo sapiens with 24 samples.

Results

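The 38 genes described here encode the NF-kB transcription factor subunits, their inhibitors and feedback regulators, the kinases and adaptors that act above them, and inflammatory cytokines and effectors. They were taken as a list of gene symbols, and all 38 were among the 21657 genes kept from the deposited table. By role they comprise 5 subunits, 8 inhibitors and feedback regulators, 11 kinases and adaptors, 11 cytokines and chemokines and 3 other effectors. These roles are broad labels. The receptor CD40 was placed with the kinases and adaptors, and TNFAIP2, a gene induced by TNF, with the inhibitors and feedback regulators. Their RNA was measured in 24 libraries of polyadenylated RNA from 6 established human liver cancer lines, SK-HEP1, HLE, HepG2, Huh7, Huh1 and Hep3b, all labelled wild type and hepatocellular carcinoma.

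The 4 groups held 6 libraries each, 1 per line. They were cells given an siRNA against SFPQ (siSFPQ) with TGF-beta, siSFPQ cells without TGF-beta, cells given a control siRNA (siCTL) with TGF-beta, and siCTL cells without TGF-beta. TGF-beta was used at 2 ng per ml for 24 hours, and the cells of all groups grew in DMEM with fetal bovine serum. SFPQ is an RNA-binding protein found in nuclear bodies called paraspeckles, and TGF-beta is a cytokine whose receptors act on SMAD transcription factors. The study thus compared siSFPQ with siCTL cells in each condition, TGF-beta with no TGF-beta in each kind of cell, and the interaction of both. The labels name 1 siRNA per target, no batch and no repeat cultures of a line. The lines therefore serve as the replicates, and each p-value weighs the mean change within lines against the spread of that change between lines. That spread, like the standard errors given, was moderated toward a trend over all genes.

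NF-kB dimers are held in the cytoplasm by inhibitory IkB proteins until an IkB kinase complex marks those inhibitors for destruction, after which the dimers enter the nucleus. Among the genes they switch on are their own inhibitors, such as NFKBIA and TNFAIP3, so the pathway limits itself by feedback. Another branch depends on the kinase encoded by MAP3K14 and on processing of the NFKB2 protein, and ends in dimers that contain RELB. In liver cells the pathway is known for its part in survival under TNF and in the response to IL-1 and other inflammatory signals.

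The deposited values are FPKM, which are fragment numbers divided by transcript length and library depth, and give no counts. Relative depth, read from the commonest ratio of low values between libraries, lay between 0.352 and 1.73 times the median library. It was lowest in Huh7 siSFPQ cells with TGF-beta (0.352) and HepG2 siSFPQ cells without it (0.443). The labelled identity was checked against 9 hepatocyte markers. Their summed level was 12.5 to 23.4 FPKM in the libraries labelled Hep3b, where 5 of the 9 were under 1 FPKM in every library and ALB did not exceed 0.951 FPKM, and 18.2 to 22.2 FPKM in SK-HEP1. It was 25.3 to 109.5 FPKM in HLE and 13125 to 18970.2 FPKM in Huh7. Counts of calls without Hep3b are given with the results. All 7 endothelial markers were under 1 FPKM in every library, and the leukocyte marker PTPRC did not exceed 0.063 FPKM, although LYZ reached 743 FPKM in HepG2 siCTL cells. In such bulk libraries, fewer expressing cells and less RNA per cell cannot be told apart.

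RefSeq promoters (build GRCh38.p14, which differs from the hg19 build of the deposited data) were found for 31 of the 38 genes. The NF-kappaB consensus, searched on both strands in the 250 bases before the start, was present in 15 of these 31 genes (48.4%), against 6.28% of the 27305 genes in the table. A gene with several promoters was counted when any of them held a match. A looser form, GGGNNNNNCC on either strand, of which every consensus match is also an example, was present in 30 of the 31, against 57.8% of all genes. A match is a description of the sequence and not evidence of binding. Stretches are shown only for genes with a match, chosen from those named below whether or not they passed a test. The consensus match is in capitals. NFKB1 and TNIP1 rose after SFPQ knockdown. Each has another listed promoter with 0 consensus matches, and the whole 250-base window of the promoter with the match is shown (NFKB1, chr4:102501109-102501358, plus strand, and TNIP1, chr5:151081035-151081284, minus strand).
NFKB1: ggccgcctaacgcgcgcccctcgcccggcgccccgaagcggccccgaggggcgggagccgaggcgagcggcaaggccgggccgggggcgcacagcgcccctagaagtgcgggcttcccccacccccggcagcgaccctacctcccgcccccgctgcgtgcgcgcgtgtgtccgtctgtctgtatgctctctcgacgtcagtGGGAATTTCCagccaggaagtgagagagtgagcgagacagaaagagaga
TNIP1: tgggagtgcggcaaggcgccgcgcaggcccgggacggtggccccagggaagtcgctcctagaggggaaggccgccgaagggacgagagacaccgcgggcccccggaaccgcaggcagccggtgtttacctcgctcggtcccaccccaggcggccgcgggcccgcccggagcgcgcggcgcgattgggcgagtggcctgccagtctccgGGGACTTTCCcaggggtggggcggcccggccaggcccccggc

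NFKBIA and TNFAIP3 encode the classical feedback inhibitors, and shorter stretches around their matches are shown, from chr14:35404796-35404855 (minus strand) and chr6:137867167-137867238 (plus strand). TNFAIP3 holds 2 matches, which start 67 and 55 bases before the gene start.
NFKBIA: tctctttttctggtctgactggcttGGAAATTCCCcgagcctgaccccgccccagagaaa
TNFAIP3: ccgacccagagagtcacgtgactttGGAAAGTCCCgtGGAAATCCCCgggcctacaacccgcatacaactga

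CXCL1, CXCL2 and CXCL3 are neighbouring chemokine genes on chromosome 4 and carry the same 11 capitals, which hold 2 overlapping matches on opposite strands. They are shown because 1 of the 3 passed a test with TGF-beta and the other two did not. The stretches are chr4:73869289-73869349 (plus strand), chr4:74099238-74099298 (minus strand) and chr4:74038733-74038793 (minus strand).
CXCL1: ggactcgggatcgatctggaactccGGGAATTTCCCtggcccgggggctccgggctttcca
CXCL2: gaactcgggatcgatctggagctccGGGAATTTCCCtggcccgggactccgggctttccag
CXCL3: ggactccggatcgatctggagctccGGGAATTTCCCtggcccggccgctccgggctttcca

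BIRC3, which encodes an inhibitor of cell death, also passed a test with TGF-beta, and its window holds 2 matches (chr11:102317234-102317483, plus strand).
BIRC3: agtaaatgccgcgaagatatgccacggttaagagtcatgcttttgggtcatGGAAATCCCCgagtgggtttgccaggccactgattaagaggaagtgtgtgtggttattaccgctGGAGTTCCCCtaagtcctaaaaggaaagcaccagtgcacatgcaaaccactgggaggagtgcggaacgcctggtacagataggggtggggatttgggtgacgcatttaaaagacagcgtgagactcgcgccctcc

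A consensus match was present in 5 of the 11 genes with a promoter that passed a test in any comparison and in 10 of the 20 that passed in none. BCL3, ICAM1, IRAK2, RELA, SOD2 and TRAF2 passed a test and held no match.

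**Figure D1:**
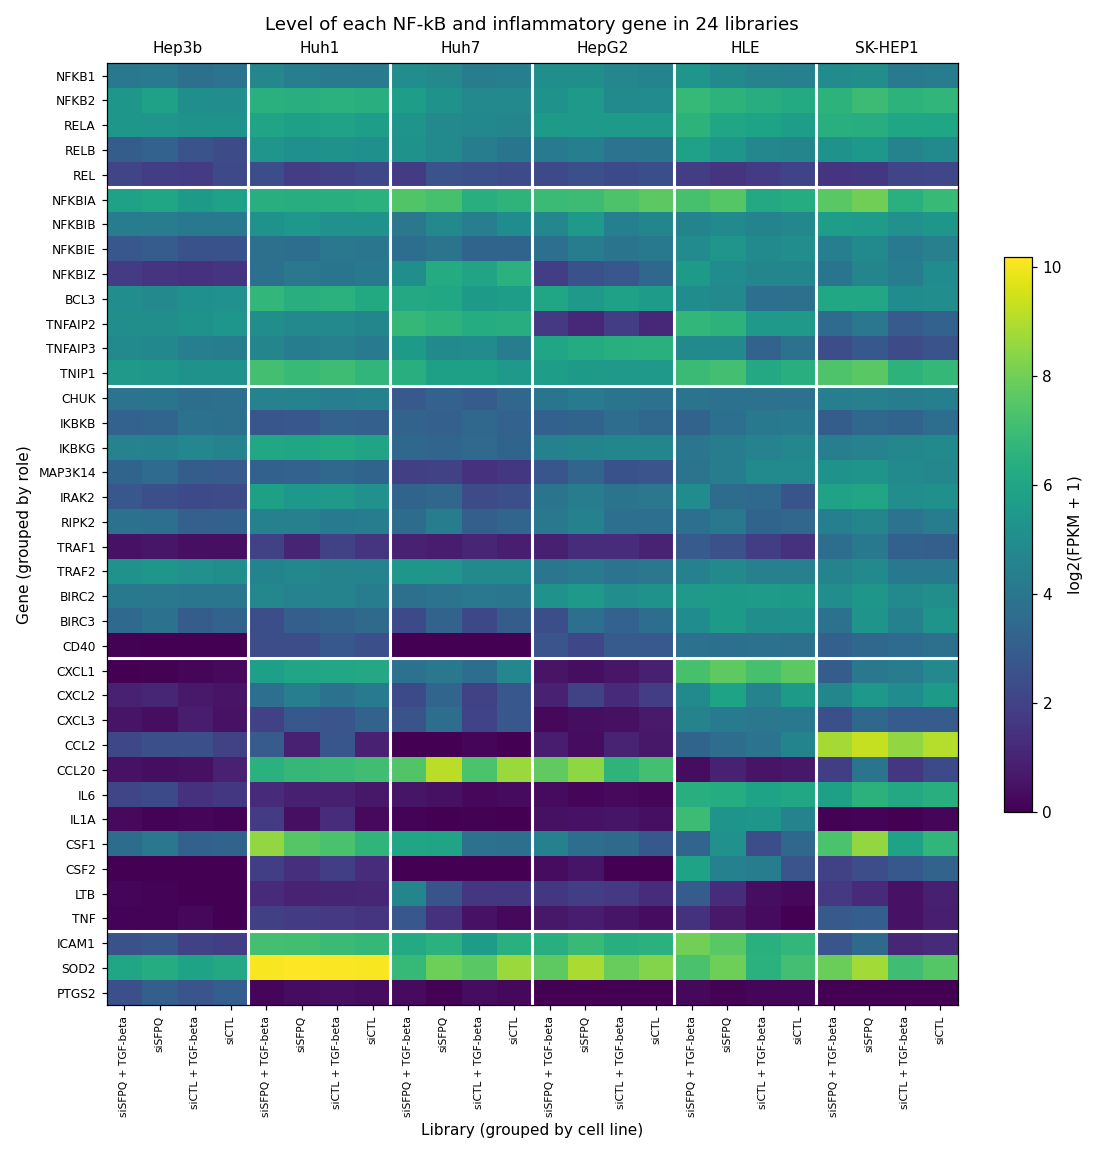
Level of each of the 38 genes, as log2(FPKM + 1) by colour, in the 24 libraries grouped by cell line. CCL2 is brightest in SK-HEP1, with a mean of 493 FPKM, and CCL20 in Huh7, HepG2 and Huh1.

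Levels differed widely between lines. Of the 38 genes, 25 reached 1 FPKM in all 24 libraries, and 13 had at least 1 line whose mean over its 4 libraries was under 1 FPKM. The mean was highest in HLE for 12 genes and in SK-HEP1 for 11, and it was lowest in Hep3b for 18 and in Huh7 for 10. By these means HLE and SK-HEP1 both lay above the other 4 lines for 12 genes and both below them for 2, REL and TNFAIP3. Single libraries could overlap, as TNFAIP3 was at 27.5 and 28.2 FPKM in HLE siSFPQ cells and at most 23.99 FPKM in Huh1. The shares of all genes with such orders were not computed, so these counts are no result about the members. These are descriptions of single lines, and the 4 libraries of a line are not replicates of a condition.

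Several subunit and kinase genes differed little over lines. NFKB1 averaged 28.5 FPKM in HepG2 and 15.1 FPKM in Hep3b, a 1.89-fold range over lines. RIPK2 ranged 1.89-fold as well, and IKBKB, which encodes a catalytic subunit of the IkB kinase, 1.99-fold. Several secreted factors were high in a few lines only. CCL2, a chemokine for monocytes, averaged 493 FPKM in SK-HEP1, while its next level was 14.3 FPKM in HLE. IL6 averaged 75.2 FPKM in SK-HEP1 and 71.5 FPKM in HLE, which overlapped, and 2.77 FPKM or less in the other lines. CCL20, a chemokine for lymphocytes and dendritic cells, averaged 320 FPKM in Huh7, 199 FPKM in HepG2 and 113 FPKM in Huh1, and Huh7 and HepG2 overlapped.

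Other genes followed other orders. CXCL1 averaged 174 FPKM in HLE, above Huh1 with 63.7 FPKM, and the libraries of these lines did not overlap. SOD2, a mitochondrial superoxide dismutase, averaged 1113 FPKM in Huh1, the highest mean of the list, and 304 FPKM in HepG2. TNFAIP3, a ubiquitin-editing feedback inhibitor, averaged 78.2 FPKM in HepG2 and 4.87 FPKM in SK-HEP1. IL1A was at 56.2 FPKM in HLE and at most 1.08 FPKM on average elsewhere, and PTGS2, the inducible cyclooxygenase, reached 1 FPKM in Hep3b alone (6.19 FPKM). CSF2 was listed at 0 in 10 libraries and CD40 in 7, among them all 4 Huh7 libraries for both. TNF reached 1 FPKM in 9 libraries, with a maximum of 7.19 FPKM in SK-HEP1.

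The siRNA was checked first. Values per line follow 1 order, Hep3b, Huh1, Huh7, HepG2, HLE, then SK-HEP1, here and in what follows. Without TGF-beta, SFPQ was at 40.5, 36.5, 51.4, 46.6, 23.5 and 24.3 FPKM in siSFPQ cells, against 167, 90.4, 198, 103, 247 and 185 FPKM in siCTL cells. With TGF-beta SFPQ was at 37.5, 37.96, 54.6, 44.02, 26.5 and 28.2 FPKM in siSFPQ cells, against 163, 84.7, 178, 100.5, 248 and 172 FPKM in siCTL cells. The siSFPQ library was lower in every line and the groups did not overlap. HLE kept 9.49% of its SFPQ level and SK-HEP1 13.1% without TGF-beta, while Huh1 kept 40.4% and HepG2 45.2%.

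**Figure D2:**
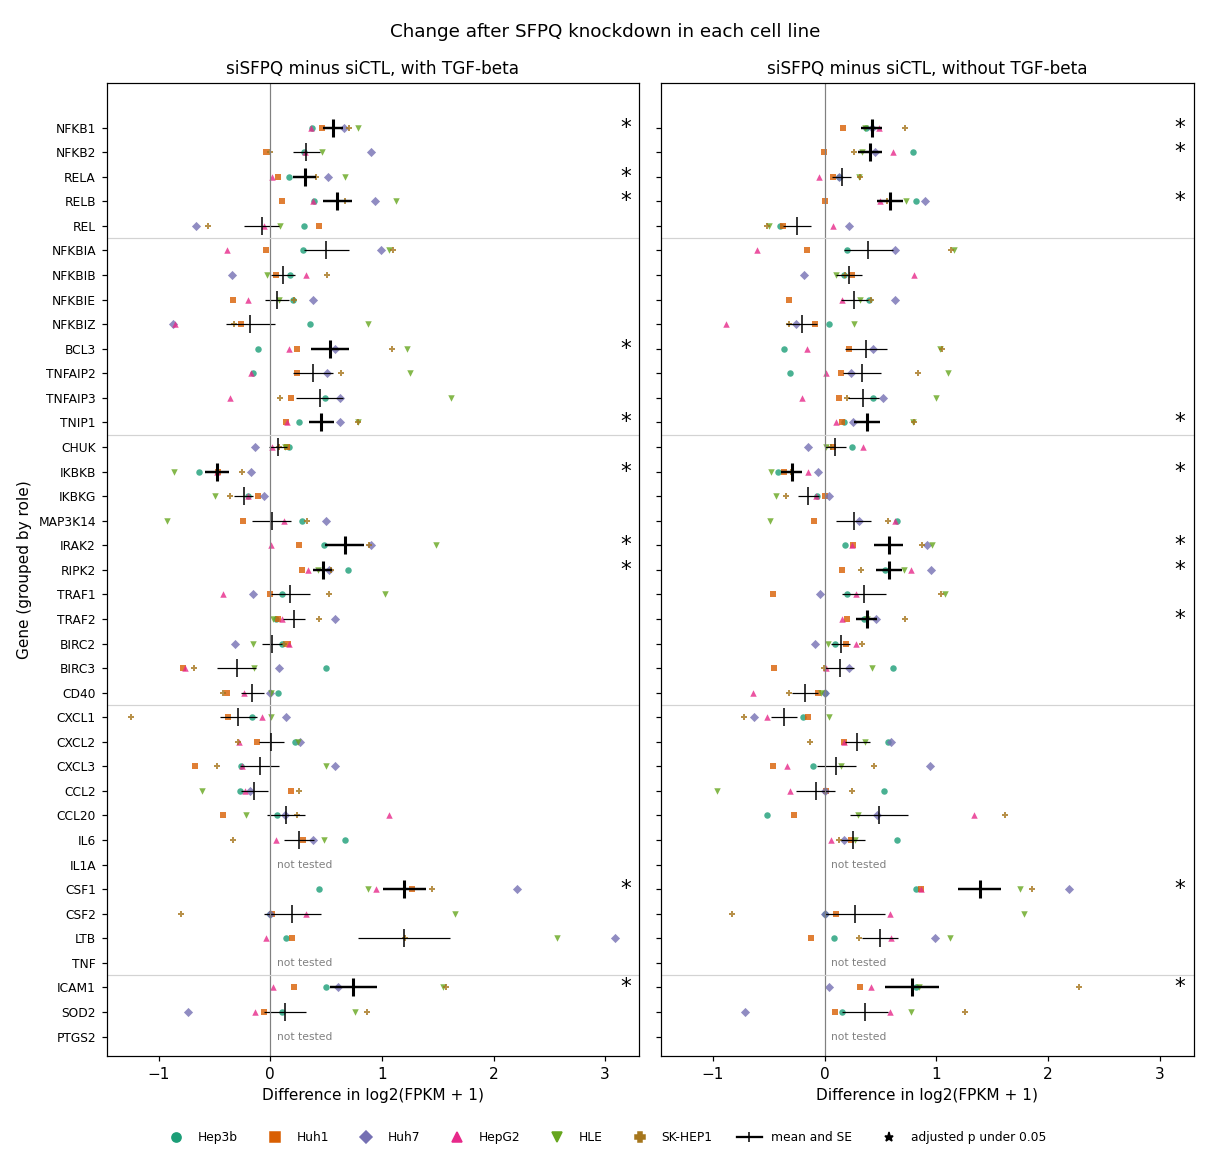
Difference in log2(FPKM + 1) between siSFPQ and siCTL cells for each gene and line, with TGF-beta on the left and without it on the right. Coloured symbols are the 6 lines, black bars the mean and its standard error, and stars mark an adjusted p under 0.05. NFKB1, RELB, RIPK2 and CSF1 lie right of 0 in all 6 lines in both panels, and IKBKB lies left of 0.

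After SFPQ knockdown most of the tested members were higher. Without TGF-beta 9 of the 35 genes tested rose and 1 fell, and with TGF-beta again 9 of 35 rose and 1 fell. The genes that rose in both conditions were the subunits NFKB1 and RELB, the regulator TNIP1, the signalling proteins IRAK2 and RIPK2, the growth factor CSF1 and the adhesion molecule ICAM1, and IKBKB fell in both. NFKB2 and TRAF2 rose without TGF-beta, and RELA and BCL3 with it. The 2 knockdown comparisons use different libraries of the same lines, and each shares its libraries with the TGF-beta comparisons below, so values are set side by side without counting them as separate support.

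Over all genes 21.7% of 12010 were called without TGF-beta, 6.69% higher and 15% lower. With TGF-beta 30.3% of 12021 were called, 8.47% higher and 21.8% lower. The total of 10 of 35 members called there is near that share and is no result about the members. The sign was positive for 28 of the 35 tested members without TGF-beta and for 26 of 35 with it, against 40.6% and 37.6% of all genes tested. The median log2 change of the members was 0.29 without TGF-beta, where that of all genes was -0.065, and 0.18 with it, where that of all genes was -0.093. The members were chosen with earlier results of these data known, so these signs and medians are descriptions and not a test. Changes are differences of log2(FPKM + 1), which understate the change of low genes. IL1A, TNF and PTGS2 were too low to be tested. When libraries were scaled to a common median ratio, the calls over all genes split into 1171 higher and 1370 lower without TGF-beta, in place of 804 and 1805, and into 1581 and 1715 with it, in place of 1018 and 2621. Members then split into 11 higher and 0 lower without TGF-beta, and 11 higher and 1 lower with it.

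The counts depend on which lines are included. Without TGF-beta 6 members were called when Hep3b, Huh7, HLE or SK-HEP1 was left out. With TGF-beta 6 were called without Huh7 or without SK-HEP1, and 10 without Hep3b. Without both Huh7 and HepG2, which hold the shallowest libraries, 1 member was called without TGF-beta and 6 with it. With no filter on low values, where more genes share the adjustment, 5 and 6 members were called. Keeping the short RNA rows ended the calls of ICAM1, IKBKB and TNIP1 without TGF-beta and of BCL3 and RELA with it. A pseudocount of 5 ended those of IKBKB and TNIP1 without TGF-beta, and a pseudocount of 0.1 that of ICAM1. Plain eBayes ended the call of TNIP1 without TGF-beta and that of RELA with it. CSF1, RIPK2, RELB and NFKB1 passed in both conditions whichever single line was left out.

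Among the subunits, NFKB1 encodes the precursor of the p50 subunit. Without TGF-beta NFKB1 was at 17.96, 19.2, 26.8, 32.7, 27.8 and 31.99 FPKM in siSFPQ cells and at 13.7, 17.1, 19.8, 22.99, 21.4 and 19.05 FPKM in siCTL cells. It was higher in siSFPQ cells in all 6 lines, most in SK-HEP1 and least in Huh1, and the ranges of the groups overlapped, as they did for every member in every comparison. The log2 change was 0.42 (SE 0.090, adjusted p = 0.0135). With TGF-beta NFKB1 was at 16.4, 24.96, 30.5, 33.01, 39.9 and 28.9 FPKM in siSFPQ cells and at 12.4, 17.8, 18.9, 25.4, 22.8 and 17.4 FPKM in siCTL cells, again higher in 6 of 6 lines, with a change of 0.56 (SE 0.087, adjusted p = 0.00400).

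RELB encodes the subunit that partners the processed NFKB2 protein. Without TGF-beta RELB was at 8.10, 33.7, 28.1, 20.1, 40.1 and 42.7 FPKM in siSFPQ cells and at 4.18, 33.6, 14.6, 13.98, 23.8 and 28.6 FPKM in siCTL cells. The difference was widest in Huh7 and Hep3b, and Huh1 was level. The change was 0.58 (SE 0.12, adjusted p = 0.0111). With TGF-beta RELB was at 6.93, 39.2, 36.1, 18.1, 55.5 and 36.6 FPKM in siSFPQ cells and at 5.03, 36.5, 18.4, 13.6, 24.9 and 22.7 FPKM in siCTL cells, higher in 6 of 6 lines and most in HLE, with a change of 0.60 (SE 0.13, adjusted p = 0.0116).

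NFKB2 was at 55.1, 85.9, 36.96, 44.7, 94.5 and 125 FPKM in siSFPQ cells and at 31.4, 86.1, 26.8, 28.9, 74.5 and 104 FPKM in siCTL cells without TGF-beta. Its level was higher in 5 of 6 lines and level in Huh1, with a change of 0.41 (SE 0.11, adjusted p = 0.0252). With TGF-beta NFKB2 was at 40.6, 87.2, 50.3, 35.3, 111 and 94.7 FPKM in siSFPQ cells and at 32.7, 89.4, 26.5, 28.2, 80.04 and 94.9 FPKM in siCTL cells, with a change of 0.32 (SE 0.12, adjusted p = 0.0651). It did not pass there. Its call without TGF-beta was lost without Hep3b (adjusted p = 0.0649), Huh7, HepG2 or HLE.

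RELA encodes the main transactivating subunit. Without TGF-beta RELA was at 39.1, 54.8, 26.5, 43.4, 63.02 and 79.8 FPKM in siSFPQ cells and at 35.5, 51.97, 24.2, 44.9, 50.6 and 63.97 FPKM in siCTL cells, a change of 0.15 (SE 0.082, adjusted p = 0.203) that did not pass. With TGF-beta RELA was at 41.3, 61.002, 37.6, 46.1, 93.9 and 82.4 FPKM in siSFPQ cells and at 36.7, 57.9, 25.96, 45.7, 58.7 and 61.8 FPKM in siCTL cells. It was higher in 6 of 6 lines, most in HLE and by the least in HepG2, with a change of 0.31 (SE 0.10, adjusted p = 0.0437). That call was lost without Hep3b, Huh7, HLE or SK-HEP1, with an adjusted p of up to 0.106. REL, the remaining subunit, passed in neither condition, with changes of -0.25 without TGF-beta and -0.075 with it.

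Of the 8 inhibitors and feedback regulators, 1 rose without TGF-beta and 2 with it. TNIP1 encodes a ubiquitin-binding partner of TNFAIP3 that restrains signalling. Without TGF-beta TNIP1 was at 41.7, 114, 53.6, 46.5, 142 and 191 FPKM in siSFPQ cells and at 36.9, 102, 44.8, 43.1, 81.8 and 109 FPKM in siCTL cells. HLE and SK-HEP1 stood out, and the other 4 lines were slightly higher. The change was 0.38 (SE 0.12, adjusted p = 0.0443), and the call held when HepG2 was left out but not when any other single line was, with an adjusted p of up to 0.122. With TGF-beta TNIP1 was at 42.8, 142, 84.03, 50.4, 121 and 166 FPKM in siSFPQ cells and at 35.6, 128, 54.1, 45.2, 69.9 and 96.1 FPKM in siCTL cells, higher in 6 of 6 lines, with a change of 0.46 (SE 0.11, adjusted p = 0.0154).

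BCL3 encodes a nuclear IkB protein that can activate genes with NFKB1 or NFKB2 homodimers. With TGF-beta BCL3 was at 31.04, 107, 69.5, 62.6, 30.1 and 65.6 FPKM in siSFPQ cells and at 33.5, 90.5, 46.1, 55.6, 12.3 and 30.3 FPKM in siCTL cells. Its level was higher in 5 of 6 lines, by more than 1 on the log2 scale in HLE and SK-HEP1, and slightly lower in Hep3b. The change was 0.53 (SE 0.17, adjusted p = 0.0433). The call was lost without Huh1, Huh7, HLE or SK-HEP1, with an adjusted p of up to 0.121. Without TGF-beta BCL3 was at 26.4, 84.4, 67.1, 43.4, 26.4 and 65.9 FPKM in siSFPQ cells and at 34.2, 72.4, 49.3, 48.5, 12.4 and 31.3 FPKM in siCTL cells, a change of 0.37 (SE 0.19, adjusted p = 0.176) that did not pass.

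NFKBIA encodes the main IkB inhibitor. Without TGF-beta NFKBIA was at 64.9, 79.6, 149.6, 127, 178 and 251 FPKM in siSFPQ cells and at 56.2, 88.7, 96.5, 194, 79.2 and 114 FPKM in siCTL cells, and with TGF-beta at 56.1, 83.9, 169.8, 122, 148 and 188 FPKM in siSFPQ cells and 45.5, 85.9, 85.01, 160.1, 70.2 and 87.2 FPKM in siCTL cells. The lines split: HLE and SK-HEP1 were higher by more than 1 on the log2 scale in both conditions, Huh7 and Hep3b by less, and HepG2 and Huh1 were lower. The changes of 0.39 (SE 0.22, adjusted p = 0.217) without TGF-beta and, with it, 0.50 (SE 0.20, adjusted p = 0.0831) did not pass.

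TNFAIP3 was at 26.2, 18.8, 27.9, 76.6, 27.5 and 5.99 FPKM in siSFPQ cells and at 19.1, 17.1, 19.1, 88.1, 13.3 and 5.09 FPKM in siCTL cells without TGF-beta, and at 27.8, 23.99, 45.8, 64.8, 28.2 and 4.36 FPKM in siSFPQ cells and 19.5, 20.9, 29.3, 83.4, 8.50 and 4.04 FPKM in siCTL cells with it. It was higher in 5 of 6 lines in each condition, most in HLE, and lower in HepG2, where its level was highest. The changes were 0.35 (SE 0.14, adjusted p = 0.0980) without TGF-beta and, with it, 0.44 (SE 0.21, adjusted p = 0.139), and neither passed. The other 4 members of this role, NFKBIB, NFKBIE, NFKBIZ and TNFAIP2, had changes between -0.21 and 0.34 without TGF-beta and between -0.18 and 0.38 with it, and none passed.

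Of the 11 kinases and adaptors, 3 rose and 1 fell without TGF-beta, and 2 rose and 1 fell with it. RIPK2 encodes the kinase that carries signals from the NOD receptors. Without TGF-beta RIPK2 was at 12.1, 20.6, 18.4, 21.3, 15.8 and 23.8 FPKM in siSFPQ cells and at 8.0003, 18.4, 9.05, 12.1, 9.31 and 18.8 FPKM in siCTL cells, higher in 6 of 6 lines, most in Huh7 and least in Huh1. The change was 0.57 (SE 0.11, adjusted p = 0.0104). With TGF-beta RIPK2 was at 13.1, 21.1, 11.2, 15.7, 12.3 and 20.2 FPKM in siSFPQ cells and at 7.70, 17.2, 7.44, 12.2, 8.84 and 13.5 FPKM in siCTL cells, with a change of 0.47 (SE 0.086, adjusted p = 0.00620) and the same sign in 6 of 6 lines.

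IRAK2 encodes a kinase-like protein of the IL-1 and Toll-like receptor pathways. Without TGF-beta IRAK2 was at 4.68, 42.02, 9.52, 18.6, 11.3 and 61.7 FPKM in siSFPQ cells and at 3.99, 34.97, 4.57, 15.5, 5.30 and 33.4 FPKM in siCTL cells. Its level was higher in 6 of 6 lines, by close to 1 on the log2 scale in Huh7, HLE and SK-HEP1 and by less in the other 3. The change was 0.57 (SE 0.13, adjusted p = 0.0176). With TGF-beta IRAK2 was at 5.87, 54.1, 8.68, 14.3, 30.2 and 57.9 FPKM in siSFPQ cells and at 3.92, 45.1, 4.19, 14.3, 10.1 and 30.8 FPKM in siCTL cells, highest over siCTL in HLE and level in HepG2, with a change of 0.67 (SE 0.17, adjusted p = 0.0213). The call without TGF-beta was lost without SK-HEP1 (adjusted p = 0.0509), and the call with it without Huh7 or SK-HEP1 (adjusted p of up to 0.0605).

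TRAF2, an adaptor of TNF receptors, was at 41.5, 26.1, 39.1, 17.4, 27.03 and 27.5 FPKM in siSFPQ cells and at 32.4, 22.6, 28.2, 15.5, 20.5 and 16.3 FPKM in siCTL cells without TGF-beta. It was higher in 6 of 6 lines, most in SK-HEP1, with a change of 0.38 (SE 0.093, adjusted p = 0.0205), which was lost without Huh7, HLE or SK-HEP1 (adjusted p of up to 0.0522). With TGF-beta TRAF2 was at 36.1, 23.4, 41.4, 14.8, 21.1 and 22.4 FPKM in siSFPQ cells and at 34.8, 22.3, 27.4, 13.6, 20.7 and 16.3 FPKM in siCTL cells, a change of 0.21 (SE 0.098, adjusted p = 0.125) that did not pass.

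IKBKB went the other way. Without TGF-beta IKBKB was at 9.11, 5.83, 7.72, 8.77, 12.3 and 9.48 FPKM in siSFPQ cells and at 12.5, 7.81, 8.10, 9.82, 17.5 and 11.9 FPKM in siCTL cells, lower in 6 of 6 lines, with a change of -0.30 (SE 0.093, adjusted p = 0.0476). That call was lost whichever single line was left out (adjusted p from 0.0503 to 0.124), and with libraries scaled to a common median ratio. With TGF-beta IKBKB was at 8.10, 5.64, 8.35, 8.002, 8.53 and 7.08 FPKM in siSFPQ cells and at 13.2, 8.21, 9.51, 11.5, 16.4 and 8.61 FPKM in siCTL cells, lower in 6 of 6 lines and most in HLE. The change of -0.48 (SE 0.11, adjusted p = 0.0126) passed whichever line was left out.

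The other subunits of the IkB kinase complex did not pass. IKBKG, the regulatory subunit, had changes of -0.15 without TGF-beta and, with it, -0.24 (SE 0.084, adjusted p = 0.0587), lower in 6 of 6 lines there, and CHUK, the other catalytic subunit, had changes of 0.097 and 0.070. IKBKG has a near-identical pseudogene, so its reads may be shared. MAP3K14, TRAF1, BIRC2, BIRC3 and CD40 passed in neither condition, with changes between -0.17 and 0.35 without TGF-beta and between -0.30 and 0.18 with it.

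**Figure D3:**
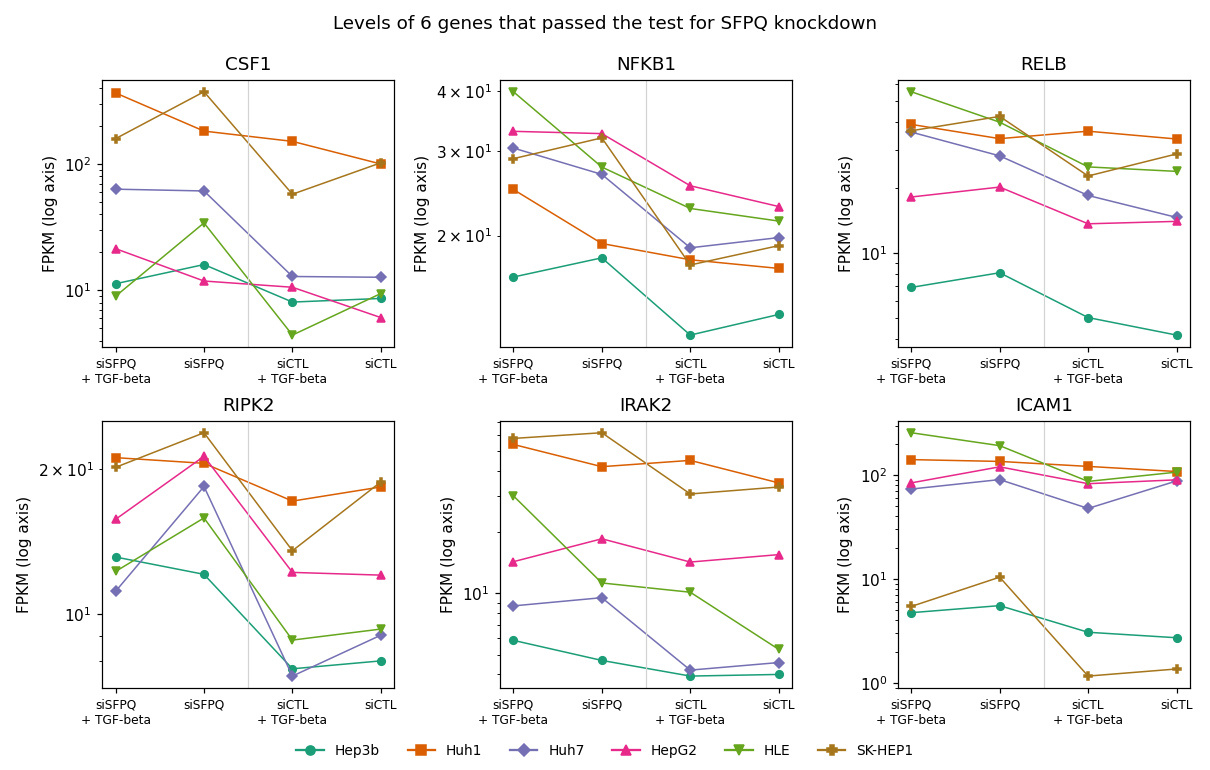
FPKM on a log axis of CSF1, NFKB1, RELB, RIPK2, IRAK2 and ICAM1 in the 4 groups, with 1 line of symbols per cell line and siSFPQ groups left of the grey divider. CSF1 in Huh7 stands at 61.2 FPKM in siSFPQ cells and 12.7 FPKM in siCTL cells without TGF-beta, and ICAM1 in SK-HEP1 at 10.4 and 1.36 FPKM.

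CSF1, the growth factor of macrophages, had the largest change of the members that passed. Without TGF-beta CSF1 was at 15.98, 182, 61.2, 11.8, 34.2 and 374 FPKM in siSFPQ cells and at 8.61, 100.01, 12.7, 6.07, 9.43 and 102 FPKM in siCTL cells. Its level was higher in 6 of 6 lines, most in Huh7, SK-HEP1 and HLE, and the change was 1.39 (SE 0.19, adjusted p = 0.00374). With TGF-beta CSF1 was at 11.3, 366, 63.2, 21.4, 8.97 and 159 FPKM in siSFPQ cells and at 8.06, 151, 12.9, 10.6, 4.42 and 57.7 FPKM in siCTL cells, higher in 6 of 6 lines and least in Hep3b, with a change of 1.20 (SE 0.19, adjusted p = 0.00448).

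CSF1 was the only 1 of the 9 tested cytokines and chemokines to pass in either condition. The largest change that missed the threshold was that of LTB, lymphotoxin beta, which signals to the RELB branch. Without TGF-beta LTB was at 0.0630, 0.951, 5.29, 2.69, 1.53 and 1.31 FPKM in siSFPQ cells and at 0, 1.12, 2.17, 1.44, 0.159 and 0.869 FPKM in siCTL cells, a change of 0.50 (SE 0.16, adjusted p = 0.0557). With TGF-beta LTB was at 0.102, 1.38, 24.7, 2.16, 6.71 and 2.24 FPKM in siSFPQ cells and at 0, 1.07, 2.02, 2.24, 0.301 and 0.402 FPKM in siCTL cells, a change of 1.19 (SE 0.41, adjusted p = 0.0541). Huh7 and HLE were far higher with TGF-beta, and HepG2 and Hep3b were nearly level.

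CCL20 had a change of 0.49 (SE 0.26, adjusted p = 0.198) without TGF-beta, higher in 4 of 6 lines, and 0.14 with it. CXCL1, named after its values were seen, was lower in 5 of 6 lines without TGF-beta with a change of -0.36 (SE 0.12, adjusted p = 0.0504), and had -0.28 with it. IL6 had changes of 0.25 and 0.26, CXCL2 of 0.29 and 0.0081, CXCL3 of 0.10 and -0.095, CCL2 of -0.081 and -0.14, and CSF2 of 0.27 and 0.20, each without TGF-beta first. None of these passed. TNF, which was not tested, was higher in siSFPQ cells in 6 of 6 lines without TGF-beta, at 0.0830, 2.50, 1.75, 0.689, 0.6248 and 7.19 FPKM, against 0, 1.92, 0.154, 0.281, 0 and 0.818 FPKM in siCTL cells. With TGF-beta TNF was higher in 5 of 6 lines. Of the other untested genes, IL1A was higher in 4 of 6 lines without TGF-beta and in 5 with it. PTGS2 was lower in 5 of 6 lines without TGF-beta and in 4 with it.

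ICAM1 encodes an adhesion molecule for leukocytes. Without TGF-beta ICAM1 was at 5.54, 136, 90.6, 120.2, 192 and 10.4 FPKM in siSFPQ cells and at 2.72, 108, 87.9, 90.1, 107 and 1.36 FPKM in siCTL cells, higher in 6 of 6 lines, most in SK-HEP1 from a low level and by very little in Huh7. The change was 0.78 (SE 0.24, adjusted p = 0.0440), and the call was lost without Hep3b, HepG2 or HLE (adjusted p of up to 0.0924). With TGF-beta ICAM1 was at 4.74, 141, 73.5, 84.2, 256 and 5.44 FPKM in siSFPQ cells and at 3.07, 121, 47.8, 82.7, 87.01 and 1.16 FPKM in siCTL cells, higher in 6 of 6 lines, most in SK-HEP1 and HLE. The change of 0.74 (SE 0.21, adjusted p = 0.0271) was lost without Huh7, HLE or SK-HEP1 (adjusted p of up to 0.0727). SOD2 had changes of 0.36 without TGF-beta and 0.13 with it and did not pass. The annotation places antisense genes over ICAM1, TNFAIP3, IL6, CHUK and MAP3K14 and other genes over RELA, NFKBIB and SOD2. Whether the libraries keep strand is not given in the sources used here.

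Over lines the members' differences were uneven. Without TGF-beta a difference of at least 1.5-fold on the FPKM + 1 scale was seen upward in 15 members and downward in 1 in HLE, where 8.15% of all genes measured in that line were that much higher and 19.2% lower. SK-HEP1 had 13 members higher and 2 lower (all genes 8.26% and 24.9%). Huh7 had 10 higher and 2 lower (6.52% and 11.3%), HepG2 8 and 3 (5.36% and 10.8%), and Hep3b 7 and 0 (2.69% and 8.99%). Huh1 had 1 higher and 0 lower (1.9% and 3.2%). HLE and SK-HEP1, with the most members higher, were the lines that kept the least SFPQ, and Huh1, with the fewest, kept more than all but HepG2. HepG2, which kept the most, had 8 members higher, and Hep3b, which kept 24.2%, had 7. The shares of all genes were likewise largest in HLE and SK-HEP1 and smallest in Huh1. A link between the SFPQ level and these counts was not tested. With TGF-beta the counts were 18 higher and 3 lower in HLE (9.77% and 22.1%), 12 and 3 in SK-HEP1 (9.2% and 24.6%), 11 and 3 in Huh7 (6.82% and 13.4%), 2 and 2 in HepG2 (3.14% and 7.72%), 2 and 1 in Hep3b (2.97% and 8.05%) and 1 and 2 in Huh1 (3.74% and 5.31%). Each of these counts compares 1 library with 1 other, with no replicate.

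A wider set outside the 38 held receptors and proximal signalling genes, ubiquitin editing and nuclear regulators, other targets and inflammatory genes, and regulators of STAT3 and the acute phase, which are not NF-kB pathway genes. Of its 101 genes tested without TGF-beta 18 rose and 4 fell, where 6.69% of all genes were called higher and 15% lower. Of 100 tested with it 22 rose and 9 fell, where 8.47% were called higher and 21.8% lower. The total called is near the share over all genes in both conditions (21.7% and 30.3%) and is no result about the set. As for the members, more of its calls were upward than downward, while over all genes more were downward. The lists were chosen with earlier results of these data known, so that direction is a description and not a test. Of the wider set, the 11 STAT3 and acute phase regulators gave 1 that rose without TGF-beta and 3 with it. Without TGF-beta the smallest p-values among those that passed were those of the receptor gene LTBR (0.70), the adaptor TRAF3 (0.74), COMMD1 (-1.55), the death receptor TNFRSF10B (0.64) and TBKBP1 (1.26), an adaptor of the kinase TBK1. With TGF-beta they were those of IER3 (0.98), an early response gene, COMMD1 (-1.57), the immunoproteasome subunit PSMB9 (-0.96), TRAF3 (0.66) and the RNA-binding protein ZFP36 (0.77). TRAF3 and COMMD1 are known as restraints on the pathway. Of the 7 stellate cell and fibroblast markers, PDGFRB (1.05) and COL1A1 (0.98) rose and ACTA2 (-0.42) fell with TGF-beta, where the summed level of the list was 40.5 to 319 FPKM in siSFPQ cells and 37.6 to 208 FPKM in siCTL cells, and ACTA2 (-0.37) fell without it. Of the 10 immune markers CD68 (0.36) rose without TGF-beta. The summed level of that list was 18.2 to 602 FPKM in siSFPQ cells and 20.3 to 776 FPKM in siCTL cells, and the part of either list in the members' changes was not tested.

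**Figure D4:**
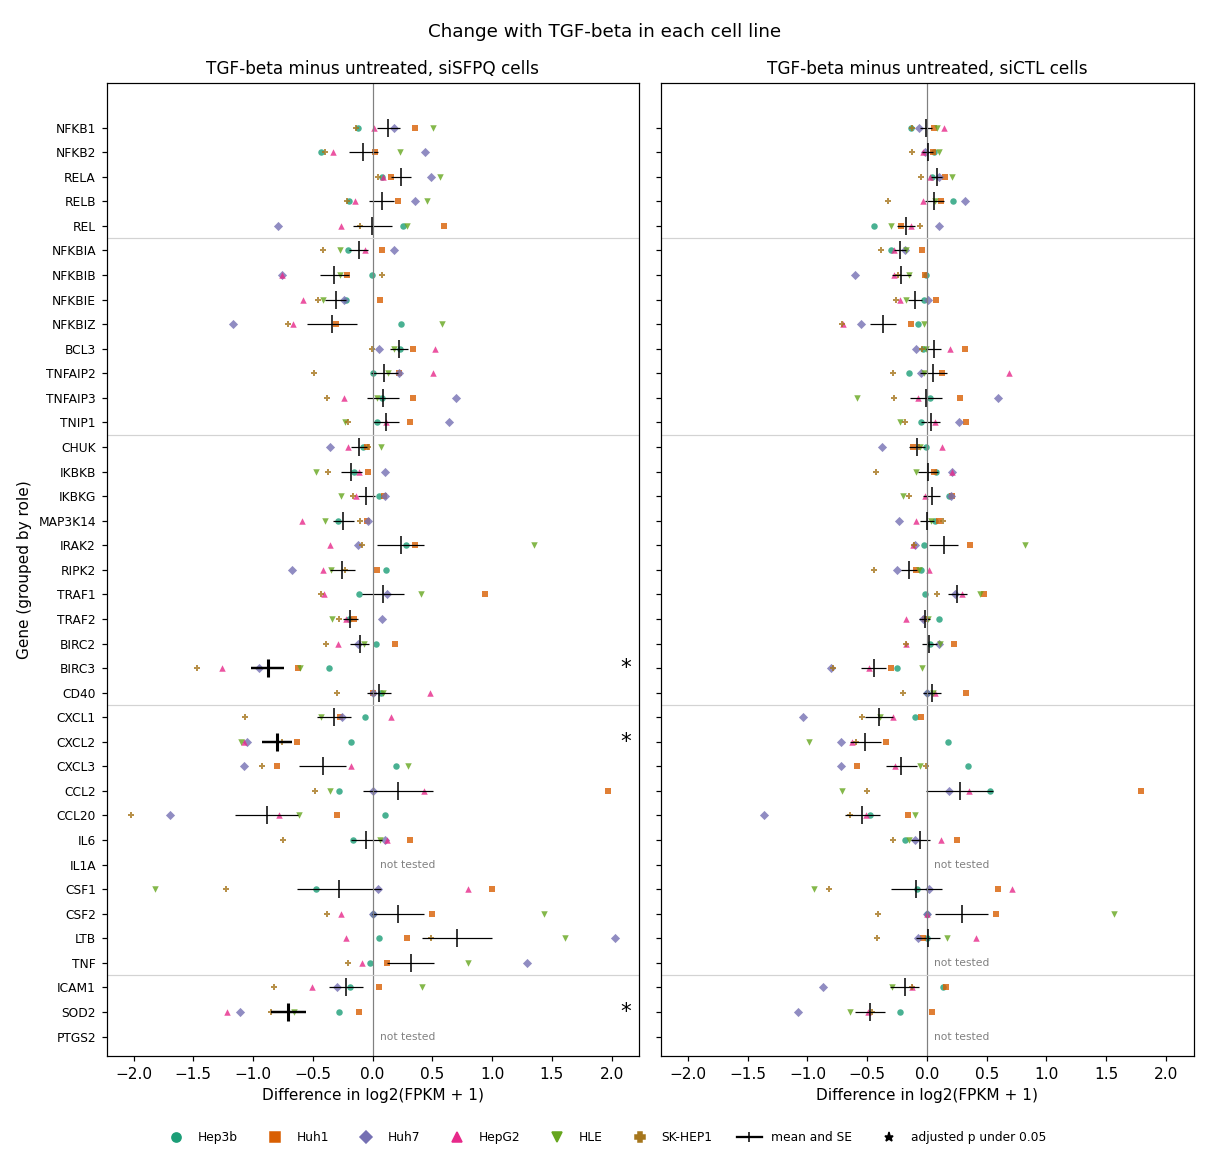
Difference in log2(FPKM + 1) between TGF-beta and untreated cells for each gene and line, in siSFPQ cells on the left and siCTL cells on the right. Coloured symbols are the 6 lines, black bars the mean and its standard error, and stars mark an adjusted p under 0.05. CXCL2, BIRC3 and SOD2 lie left of 0 in all 6 lines in siSFPQ cells, and their changes in siCTL cells are -0.52, -0.44 and -0.48.

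With TGF-beta a chemokine gene, a survival gene and SOD2 fell in siSFPQ cells. There 3 of the 36 members tested fell (CXCL2, BIRC3 and SOD2) and 0 rose, where 5.34% of 11883 genes were called, 2.33% higher and 3% lower. So few calls are near the share over all genes and are no result about the members as a set. The 3 calls also depended on single lines, as given below. In siCTL cells 0 of 35 passed by limma, where 0.0987% of 12164 genes did, 0.0658% higher and 0.0329% lower, and 10 members had an unadjusted p under 0.05, as did 1909 of the 12164 genes. The members' median log2 change was -0.094 in siSFPQ cells, where that of all genes was -0.056, and -0.0081 in siCTL cells, where that of all genes was -0.025. The treatment itself was seen in TAGLN, an actin-binding protein induced by TGF-beta, which rose in siSFPQ cells (1.36) and in siCTL cells (1.39). Of the stellate cell and fibroblast markers, COL1A1 (2.61) and PDGFRB (1.25) rose in siSFPQ cells and none passed in siCTL cells. The summed level of that list in siSFPQ cells was 40.5 to 319 FPKM with TGF-beta and 23.8 to 180.2 FPKM without it, and its part in the members' changes was not tested. With libraries scaled to a common median ratio, the calls over all genes split into 303 higher and 109 lower in siSFPQ cells, in place of 277 and 357, and into 11 and 3 in siCTL cells, in place of 8 and 4.

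CXCL2 encodes a chemokine for neutrophils. In siSFPQ cells it was at 0.888, 12.1, 3.89, 0.915, 27.4 and 24.4 FPKM with TGF-beta and at 1.14, 19.3, 9.14, 3.03, 59.7 and 42.004 FPKM without it. It was lower with TGF-beta in 6 of 6 lines, least in Hep3b, which had almost none. The log2 change was -0.80 (SE 0.12, adjusted p = 0.0276). In siCTL cells it was at 0.623, 13.2, 3.08, 1.32, 22.8 and 30.04 FPKM with TGF-beta and at 0.439, 17.01, 5.73, 2.58, 46.2 and 45.9 FPKM without it, lower in 5 of 6 lines, with a change of -0.52 (SE 0.13, adjusted p = 0.134) that did not pass. CXCL1 and CXCL3, whose promoter stretches hold the same match, had changes of -0.32 (SE 0.14, adjusted p = 0.175) and -0.42 (SE 0.20, adjusted p = 0.203) in siSFPQ cells and did not pass. In windows of 50 bases, 8.99% of the CXCL2 transcript is shared with CXCL3 and 3.88% with CXCL1, and reads from such windows could be split between them.

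BIRC3 encodes a ubiquitin ligase of TNF receptor complexes. In siSFPQ cells it was at 10.2, 4.50, 3.86, 4.43, 29.6 and 12.9 FPKM with TGF-beta and at 13.5, 7.48, 8.39, 12.01, 45.6 and 37.5 FPKM without it, lower in 6 of 6 lines and most in SK-HEP1 and HepG2. The change was -0.88 (SE 0.14, adjusted p = 0.0286). In siCTL cells it was at 6.95, 8.44, 3.62, 8.22, 32.9 and 21.4 FPKM with TGF-beta and at 8.47, 10.6, 7.06, 11.9, 33.8 and 37.6 FPKM without it, also lower in 6 of 6 lines, with a change of -0.44 (SE 0.10, adjusted p = 0.116) that did not pass.

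SOD2 was at 63.7, 1078, 113, 203, 153 and 241 FPKM with TGF-beta and at 77.5, 1164, 244, 475, 243 and 435 FPKM without it in siSFPQ cells, lower in 6 of 6 lines and least in Huh1, where its level was highest. The change was -0.70 (SE 0.14, adjusted p = 0.0376). In siCTL cells it was at 59.3, 1121, 189, 223, 90.2 and 131 FPKM with TGF-beta and at 69.3, 1089, 399.8, 315, 142 and 181 FPKM without it, a change of -0.48 (SE 0.12, adjusted p = 0.134) that did not pass. The 3 calls in siSFPQ cells depended on single lines. None of the 3 passed without Huh1, Huh7, HepG2 or HLE, 1 passed without SK-HEP1 (BIRC3), and all 3 passed without Hep3b. None passed with no filter on low values, and that of SOD2 was also lost with a pseudocount of 5, with common scaling, in 1 fit over 24 libraries and with short RNA rows kept.

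**Figure D5:**
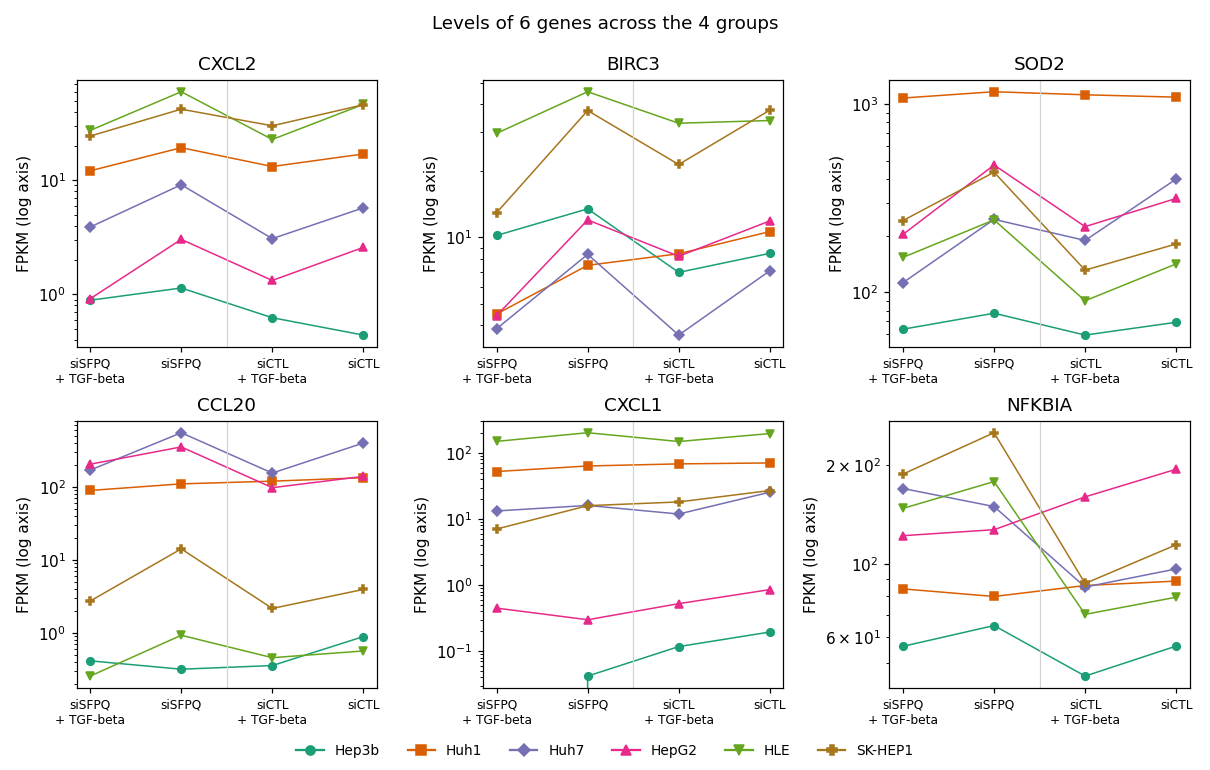
FPKM on a log axis of CXCL2, BIRC3, SOD2, CCL20, CXCL1 and NFKBIA in the 4 groups, with 1 line of symbols per cell line and siSFPQ groups left of the grey divider. BIRC3 in SK-HEP1 stands at 12.9 FPKM with TGF-beta and 37.5 FPKM without it in siSFPQ cells, and the value of CXCL1 listed at 0 in Hep3b is off the axis.

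Among the members that missed the threshold in siSFPQ cells, CCL20 had the largest change, -0.89 (SE 0.26, adjusted p = 0.0773), followed by LTB with 0.71 (SE 0.29, adjusted p = 0.155). CCL20 was at 0.414, 89.6, 170.2, 205, 0.256 and 2.73 FPKM with TGF-beta and at 0.318, 110.3, 554, 354, 0.927 and 14.2 FPKM without it in siSFPQ cells, lower in 5 of 6 lines and by the most in SK-HEP1 and Huh7. In siCTL cells it was at 0.356, 120.1, 155, 97.8, 0.457 and 2.16 FPKM with TGF-beta and at 0.888, 134, 400.2, 139.6, 0.565 and 3.94 FPKM without it, lower in 6 of 6 lines, with a change of -0.54 (SE 0.15, adjusted p = 0.145), the largest there. NFKBIA had the smallest p of the members in siCTL cells, with a change of -0.23 (SE 0.051, adjusted p = 0.110) and a lower level with TGF-beta in 6 of 6 lines. Leaving out Hep3b, 1 member, CXCL2, passed in siCTL cells.

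No subunit passed with TGF-beta. The change of NFKB1 was 0.13 (SE 0.094, adjusted p = 0.380) in siSFPQ cells and -0.0081 (SE 0.053, adjusted p = 0.956) in siCTL cells, and that of RELA was 0.24 (SE 0.084, adjusted p = 0.117) and 0.081 (SE 0.047, adjusted p = 0.426). TNFAIP3 had changes of 0.088 (SE 0.13, adjusted p = 0.688) in siSFPQ cells and -0.0074 (SE 0.13, adjusted p = 0.986) in siCTL cells, and NFKBIA had -0.12 (SE 0.082, adjusted p = 0.372) in siSFPQ cells. None of these passed. The members called after knockdown had changes with TGF-beta between -0.28 (CSF1) and 0.24 (RELA) in siSFPQ cells. CSF1 differed in sign between lines. It was higher with TGF-beta in Huh1, HepG2 and by little in Huh7, and lower in HLE, SK-HEP1 and Hep3b, in siSFPQ cells as in siCTL cells.

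By line, at least 1.5-fold lower with TGF-beta in siSFPQ cells were 10 members in SK-HEP1 (all genes 2.3%), 9 in Huh7 (7.34%), 8 in HepG2 (5.03%), 4 in HLE (6.95%), 3 in Huh1 (4.11%) and 0 in Hep3b (0.769%). Those at least 1.5-fold higher numbered 0 in SK-HEP1 (all genes 2.84%), 4 in Huh7 (8.36%), 1 in HepG2 (6.19%), 5 in HLE (6.03%), 5 in Huh1 (4.78%) and 0 in Hep3b (2.26%). In siCTL cells 8 members were lower in Huh7 (3.73%), 5 in HLE (2.35%), 5 in SK-HEP1 (1.32%), 2 in HepG2 (1.93%), 1 in Huh1 (1.67%) and 0 in Hep3b (0.66%). Higher there were 3 members in Huh1 (2.2%), 3 in HLE (2.09%), 2 in HepG2 (3.72%), 1 in Huh7 (6.31%), 0 in SK-HEP1 (1.36%) and 0 in Hep3b (0.841%). The treatments were compared within 1 library pair per line. Of the 102 genes of the wider set tested in siSFPQ cells 5 rose and 7 fell, where 5.34% of all genes were called, and 1 in each direction was among the 11 STAT3 and acute phase regulators. The smallest p-values were those of the stress gene GADD45B (1.21), the TWEAK receptor TNFRSF12A (0.41), LTBR (-0.31), the AP-1 subunit JUNB (1.65) and, from the acute phase list, CEBPD (-0.56). In siCTL cells 0 of 102 passed.

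The last comparison asked whether the TGF-beta change differed between siSFPQ and siCTL cells. By limma 0 of the 37 members tested passed, where 0.252% of 13493 genes did, 0.222% higher and 0.0296% lower, and 11 members had an unadjusted p under 0.05, as did 1688 of the 13493 genes. The median of the members was -0.040 on the log2 scale and that of all genes -0.027. LTB had the largest difference, 0.70 (SE 0.30, adjusted p = 0.389), in 5 of 6 lines, followed by BIRC3 with -0.43 (SE 0.098, adjusted p = 0.169). The difference of BIRC3 was negative in 6 of 6 lines, from -0.12 in Hep3b to -0.78 in HepG2. CXCL2 and SOD2 had differences of -0.28 (SE 0.070, adjusted p = 0.192) and -0.23 (SE 0.092, adjusted p = 0.352), also negative in 6 of 6 lines. For NFKB1, RELA, NFKBIA and TNFAIP3 the differences were 0.14, 0.16, 0.11 and 0.095. A call for CXCL2, BIRC3 and SOD2 in siSFPQ cells and none in siCTL cells was therefore not matched by a difference that passed. Of the 112 genes of the wider set tested, CEBPB, a transcription factor of the acute phase response, passed with a positive difference (0.74). It is 1 of the 11 STAT3 and acute phase regulators, and 0 genes of the other 3 lists passed.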

How the data were processed

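Polyadenylated RNA of 24 libraries was analysed. TopHat2 2.1.1, Cufflinks 2.2.1 and build hg19 are named by the submitters' processing notes, with annotation and settings not given in the sources used here. Although its name speaks of raw counts, the table holds FPKM as the authors deposited them: 0.0192% of nonzero values are whole, and the smallest step between values fell with transcript length in 422 genes (log-log slope -0.871). This length check assumed a fragment length of 180 bases and used values multiplied by the relative depth of each library. The relative depths came from the commonest ratio of low values between pairs of libraries. They are approximate and were not used in tests. Groups came from the sample titles, columns were matched by name, and 2 empty columns were not used. Of 23284 rows, 1627 of short RNA were left out, since 1 of them alone took 33.6% to 51.6% of a library's FPKM sum. Estimates under 1e-06 (1265 values) were set to 0.

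Tests used log2(FPKM + 1) of the deposited values and limma 3.58.1 (R 4.3.3), on genes with at least 1 FPKM in at least 6 of the libraries compared, with cell line as a block and trended, robust eBayes. The 4 comparisons of groups used 12 libraries each. The interaction used all 24 and let both treatments vary by line. Each fit had 5 residual degrees of freedom. P-values were adjusted by Benjamini-Hochberg over all genes tested, and 0.05 was the threshold on the adjusted p. The fit was tested on simulated data. Libraries of 1 line share their cells' origin, so the line named in the titles pairs them: their deviations from group means correlated between 0.874 and 0.978, and those of libraries that differ in line and group between -0.514 and 0.410. No libraries held identical values.

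The members and gene lists were chosen with earlier results of these data known. Values of every line in the 4 groups are given for SFPQ, for each member that passed in any comparison and for NFKB1, RELA, NFKBIA and TNFAIP3. The 2 largest changes that missed the threshold are named in each comparison, and from the wider set of genes up to 5 genes that passed with the smallest p. Promoter sequences are from RefSeq and overlapping genes from a GENCODE annotation, with no conversion of coordinates. A planned comparison of the CXCL proteins was not done, since no protein table was used here, and shared stretches of their transcripts are given in its place. Alternatives were pseudocounts of 0.1 and 5, no filter, scaling to a common median ratio, no block, 1 fit over 24 libraries, plain eBayes, short RNA rows kept, and leaving out each line or both Huh7 and HepG2.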

Additional observations from a re-analysis of the deposited data

Results flagged for a closer look

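In each comparison, the 6 per-line log2 changes of a member were searched for a line that stands apart by Dixon's criterion (a large gap to the nearest line relative to the whole range). Of 178 such sets, 7 held one, where chance gives about 5%. After SFPQ knockdown without TGF-beta, ICAM1 had a change of 2.27 in SK-HEP1, where the other 5 lines lay between 0.043 and 0.84, and IL6 had 0.65 in Hep3b, where the others lay between 0.054 and 0.27. After knockdown with TGF-beta, CXCL1 had -1.25 in SK-HEP1, where the others lay between -0.38 and 0.14. With TGF-beta in siSFPQ cells, CCL2 had 1.97 in Huh1, where the others lay between -0.48 and 0.43. Its level in Huh1 was 6.52 FPKM with TGF-beta and 0.921 FPKM without it in siSFPQ cells, and 5.60 FPKM with TGF-beta and 0.905 FPKM without it in siCTL cells. In the difference between the TGF-beta changes of siSFPQ and siCTL cells, TNFAIP3 had 0.62 in HLE (others -0.16 to 0.099), TNIP1 had 0.37 in Huh7 (others -0.017 to 0.087) and IL6 had -0.46 in SK-HEP1 (others 0.0017 to 0.21). SK-HEP1 held 3 of the 7. ICAM1 after knockdown without TGF-beta passed its test (adjusted p = 0.0440 by limma), and the other 6 did not.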

How the results depend on the processing

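No called member changed sign under any alternative. With the cell line as replicate block, 10 members were called for knockdown without TGF-beta, 10 with it and 3 for TGF-beta in siSFPQ cells, and 0 in each when the replicate block was left out. With no filter on low values the counts were 5, 6 and 0. Without both Huh7 and HepG2, an alternative added after their low relative depth was seen, they were 1 (CSF1), 6 and 0. Leaving out 1 line at a time gave 6 to 10 members for knockdown without TGF-beta, 6 to 12 with it, 0 to 3 for TGF-beta in siSFPQ cells, 0 to 1 for TGF-beta in siCTL cells and 0 throughout for the interaction. The other alternatives moved these counts by at most 1.5 times. Over all genes, knockdown without TGF-beta had 2609 calls, against 1152 with no filter and 1383 to 2205 leaving out 1 line, and knockdown with it had 3639, against 2422 and 2380 to 2989. TGF-beta in siSFPQ cells had 634, against 15 with no filter, 318 with a pseudocount of 5, 341 with short RNA rows kept, 412 under common scaling and 34 to 421 leaving out 1 line. TGF-beta in siCTL cells had 12, against 0 to 25 over the alternatives, and the interaction had 34, against 0 to 36. Over all genes 0 were called in each comparison without the block, and without Huh7 and HepG2 the counts were 987, 1684, 66, 4 and 31 in the same order. The cause of these shifts was not tested, except that a fit without the filter tests more genes and a fit without a line has fewer libraries. Since the values give no counts, the precision of low genes such as TNF, LTB and CSF2 is not known.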
